A study of Mus musculus with 16 samples.

Results

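Fibroblast growth factor (FGF) ligands and receptors were followed in primary cultures of mouse articular chondrocytes, which make and maintain joint cartilage, after bleomycin, doxorubicin, interleukin-1 beta (IL-1β) or vehicle. The 10 genes were chosen by symbol: the ligands Fgf1, Fgf2, Fgf7 and Fgf18, the receptors Fgfr1, Fgfr2, Fgfr3, Fgfr4 and Fgfrl1, and the FGF-binding protein gene Fgfbp3. Each symbol had 1 row among the 55450 genes of the tables. Cells grew in 10% serum under 3% oxygen, and each of the 4 groups held 4 libraries, 16 in all. Bleomycin, which breaks DNA, was applied at 50 µg/mL for 24 h, after 4 h without serum in hyaluronidase type I-S at 4 U/mL, and the cells then spent 5 days in fresh medium. Doxorubicin, a topoisomerase II poison, was present for 5 days at 50 nM, renewed with the medium at 48 h intervals. The cytokine IL-1β, which the study set beside both drugs as an acute inflammatory stress, was applied at 1 ng/mL for 24 h. Vehicle was the same volume of phosphate-buffered saline for 24 h. The labels give no strain, sex or age, and do not say when vehicle was harvested relative to the drug groups or whether it received hyaluronidase. Drug, time in culture and, for bleomycin, the enzyme step cannot be told apart in the comparisons with vehicle or with IL-1β. Between both drugs, the drug, its exposure time and the enzyme step cannot be told apart.

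FGFs are secreted proteins that bind receptor tyrosine kinases together with heparan sulfate chains on proteoglycans, and the activated receptors signal through the adaptor FRS2 and the RAS to ERK cascade. In cartilage, FGF18 acting through FGFR3 is linked to matrix production, while FGF2 acting through FGFR1 has been linked to matrix loss in human chondrocytes. FGF7 is mainly a product of connective tissue cells that binds the IIIb splice form of FGFR2, usually made by epithelia, and gene-level values do not separate splice forms.

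Promoters of the genes with the largest differences are shown so that the sequence can be read beside the values. Each stretch is the gene strand, 5′ to 3′, ending at or before a start site listed by RefSeq on GRCm38.p6, with bases of the gene's own annotated exons left out. Capitals mark exact matches, on either strand, to 1 of 6 motifs.
Fgf7 (chr2:126034408-126034657, plus strand): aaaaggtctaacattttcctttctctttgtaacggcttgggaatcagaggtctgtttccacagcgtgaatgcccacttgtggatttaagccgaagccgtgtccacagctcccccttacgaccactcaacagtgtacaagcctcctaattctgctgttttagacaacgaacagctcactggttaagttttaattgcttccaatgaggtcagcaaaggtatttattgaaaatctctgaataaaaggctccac
Fgfr3 (chr5:33721474-33721673, plus strand, first of the 2 listed starts): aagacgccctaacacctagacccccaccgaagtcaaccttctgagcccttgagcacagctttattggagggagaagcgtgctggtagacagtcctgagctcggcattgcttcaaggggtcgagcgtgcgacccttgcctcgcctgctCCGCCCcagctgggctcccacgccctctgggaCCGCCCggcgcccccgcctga
Fgfrl1 (chr5:108693979-108694228, plus strand): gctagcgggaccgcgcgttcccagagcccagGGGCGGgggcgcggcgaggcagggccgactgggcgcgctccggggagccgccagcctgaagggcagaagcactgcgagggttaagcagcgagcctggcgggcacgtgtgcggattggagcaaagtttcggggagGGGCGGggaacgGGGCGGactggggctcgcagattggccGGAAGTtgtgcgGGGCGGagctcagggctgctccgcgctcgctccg
The motifs were the TATA box TATAAA, the GC box GGGCGG, the AP-1 site TGANTCA, a shortened kappaB site GGANTTTCC, the C/EBP site TTGCNNAA and the ETS site GGAAGT. Among the 250 bases before the start in all 32851 windows of the RefSeq table, a GC box was present in 32.7%, an ETS site in 19.7% and a TATA box in 12.4%. An AP-1 site was present in 6.75% of those windows, a C/EBP site in 9.56% and the kappaB letters in 1.07%. In the stretches shown no match overlaps another. The Fgf7 stretch held 0 matches and had 43.6% G and C, against a median of 52.4% over all windows. The full Fgfrl1 window held 4 GC boxes and 1 ETS site and had 73.6% G and C. The full first Fgfr3 window held 3 GC boxes, of which 2 are in the stretch shown, and 66.8% G and C, and the Fgfr4 window held 2 GC boxes and 64.0% G and C. The Fgfr2 window held 0 matches and had 44.0% G and C. RefSeq windows matched 8 of the 10 genes, and those of Fgf1 and Fgfr1 were not matched. None of the listed windows of these 8 genes held an AP-1, kappaB or C/EBP match, which says only that those letters are not in them.

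Levels were read as FPKM, mapped fragments scaled to transcript length and library size, so that genes can be compared per length. In vehicle the receptors stood highest: Fgfr2 averaged 52.9 FPKM, Fgfr1 47.1, Fgfr3 40.8 and Fgfrl1 39.3, and each overlapped the next in its 4 libraries. Fgf7 followed at 17.9 FPKM, Fgf2 at 3.60, Fgfr4 at 2.67, Fgf18 at 0.711, Fgfbp3 at 0.696 and Fgf1 at 0.148. Fgf2 overlapped Fgfr4, and Fgf18 overlapped Fgfbp3. The order differed by group. After both drugs Fgfr1 came first, without overlap with Fgfr2. After IL-1β Fgf7 came first, without overlap with Fgfr1, and Fgfr1 and Fgfr2 overlapped.

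**Figure D1:**
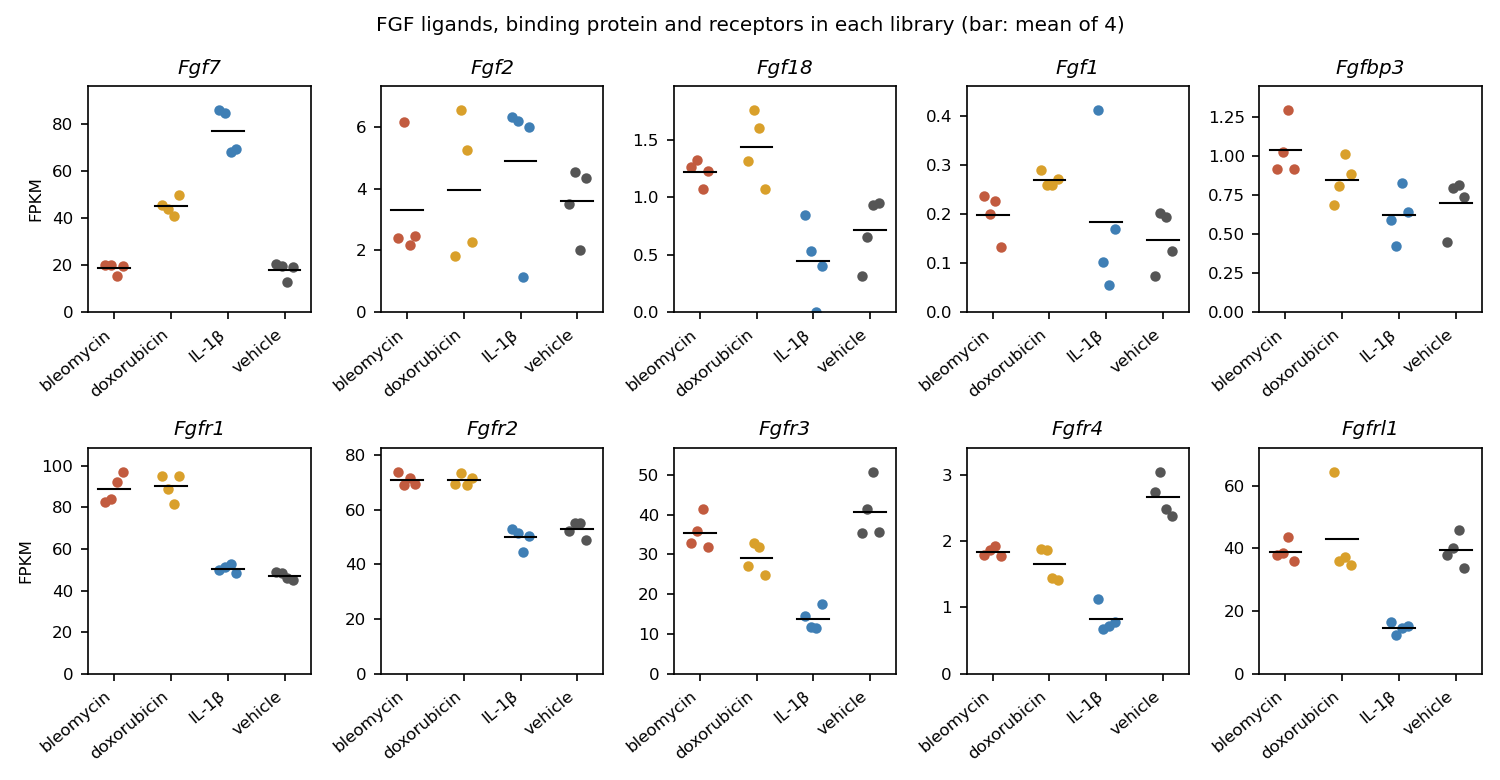
FPKM of the 10 genes in each of the 16 libraries (points; black bars are means of 4, each panel starts at 0 with its own scale), with the treated groups left of vehicle. Fgf7 stood highest after IL-1β (67.96 to 85.7 FPKM), Fgfr1 and Fgfr2 stood higher after both drugs, and Fgfr3, Fgfr4 and Fgfrl1 stood lowest after IL-1β.

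Differences are given as log2(FPKM + 1), treatment minus the other group, and were called at an adjusted p under 0.05 (limma, Benjamini-Hochberg adjustment over 12976 genes, those that reached 1 FPKM in 4 or more libraries). Of the 10 genes, 8 passed that filter, and Fgf1 and Fgfbp3 did not. Fgf18 passed only through the 8 drug libraries, since no IL-1β or vehicle library reached 1 FPKM, so its place among the tested genes already required higher drug values. After bleomycin 3 of the 8 tested genes were called, 37.5%, against 46.9% of all tested genes. After doxorubicin 6 of 8 were called, 75.0%, against 48.3% of all tested genes. After IL-1β 4 of 8 were called, 50.0%, against 43.0%. The bleomycin and IL-1β shares lie near those of all genes, and the number of genes is small. The doxorubicin count includes Fgf18, whose call the filter favoured, so that count is no support for a share above that of all genes. The 3 comparisons share the 4 vehicle libraries. The labels do not say that replicates came from separate animals or cultures, so p-values measure only the spread between these libraries, which may be technical.

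**Figure D2:**
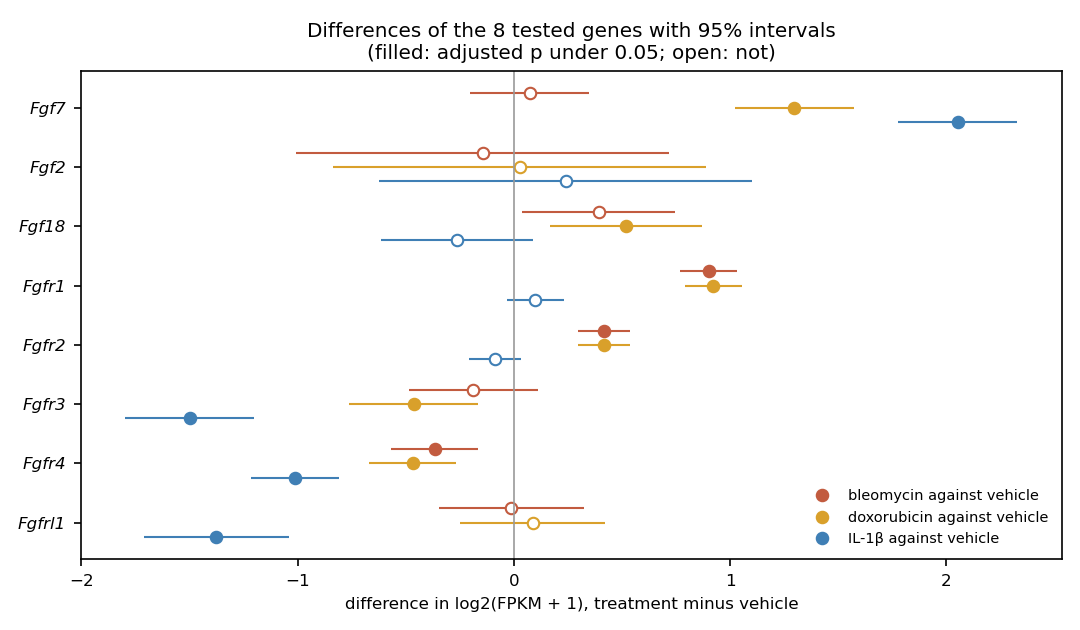
Difference in log2(FPKM + 1) of the 8 tested genes, treatment minus vehicle, with 95% intervals from limma; filled points were called at an adjusted p under 0.05. Fgfr1 and Fgfr2 lie right of 0 for both drugs, Fgf7 for doxorubicin and IL-1β, and Fgfr3, Fgfr4 and Fgfrl1 reach their lowest differences with IL-1β.

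Among the ligands, Fgf7 (ENSMUSG00000027208.14, keratinocyte growth factor, chr2:126034658-126091185, plus strand) differed most. It had 85.7, 84.3, 67.96 and 69.1 FPKM in the IL-1β libraries and 45.3, 43.9, 40.7 and 49.8 FPKM in the doxorubicin libraries, against 20.3, 19.5, 12.7 and 19.1 FPKM in the vehicle libraries. The bleomycin libraries had 19.94, 19.97, 15.4 and 19.5 FPKM. Every IL-1β library lay above every doxorubicin library, every doxorubicin library above the other 2 groups, and bleomycin and vehicle overlapped. Fgf7 rose 4.29-fold after IL-1β, a log2 difference of 2.05 ± 0.13 (SE, n = 4 against 4, limma adjusted p = 2.26e-09). It rose 2.51-fold after doxorubicin, a log2 difference of 1.30 ± 0.13 (SE, n = 4 against 4, limma adjusted p = 5.77e-07). After bleomycin the log2 difference was 0.07 with a 95% interval of -0.20 to 0.35 (limma adjusted p = 0.675).

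Fgf7 was the one gene of the 8 called between both drugs. It averaged 18.7 ± 2.21 FPKM after bleomycin and 44.9 ± 3.76 FPKM after doxorubicin (SD, n = 4 each), a log2 difference of -1.22 ± 0.13 (SE, limma adjusted p = 2.46e-05). Of all tested genes 10.0% were called between both drugs. Fgf7 was also lower after bleomycin than after IL-1β, by a log2 difference of -1.98 (limma adjusted p = 3e-09). It was lower after doxorubicin than after IL-1β as well, by a log2 difference of -0.76 (limma adjusted p = 0.000132).

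Markers of synovial fibroblasts, a connective tissue cell of the joint, had a higher sum in all 3 treated groups than in vehicle, but moved in both directions after IL-1β. Their part in the Fgf7 difference was not tested. Of 7 such markers (Prg4, also listed for chondrocytes, Thy1, Pdpn, Cd55, Clic5, Pdgfra and Dpp4) 5 were tested. The sum of the 7 ranged from 136 to 185 FPKM after bleomycin, 187 to 255 after doxorubicin and 127 to 157 after IL-1β, against 77.9 to 115 in vehicle. Called higher were 3, 4 and 2 of the 5 after bleomycin, doxorubicin and IL-1β, and 2 were called lower after IL-1β. Of all tested genes 27.9%, 25.45% and 24.5% were called higher in those comparisons, and the median log2 difference of the 5 was 0.82, 0.91 and 0.01. Clic5 and Dpp4 averaged under 1 FPKM in every group. Fgf7 was called after doxorubicin and IL-1β and not after bleomycin, and how these markers relate to it was not tested. Of 8 macrophage markers, Ptprc, Adgre1, Csf1r, Itgam, Fcgr1 and C1qa averaged under 1 FPKM in every group. Their summed level with Cd68 and Lyz2 was 9.92 to 11.5 FPKM after bleomycin, 13.6 to 17.3 after doxorubicin and 14.4 to 16.3 after IL-1β, against 3.86 to 6.08 in vehicle. In bulk RNA, a change in the number of cells of a type and a change in RNA per cell cannot be told apart.

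Fgf18 (ENSMUSG00000057967.12, a ligand of FGFR3 in cartilage, chr11:33117430-33147400, minus strand) was a low-level transcript. It had 1.26, 1.33, 1.07 and 1.23 FPKM in the bleomycin libraries and 1.31, 1.76, 1.61 and 1.07 FPKM in the doxorubicin libraries, against 0.311, 0.654, 0.931 and 0.947 FPKM in the vehicle libraries. After IL-1β it had 0.842, 0.530 and 0.401 FPKM in 3 libraries and was listed at 0 in replicate 3. All 8 drug libraries lay above all 8 others. The doxorubicin difference from vehicle was called, at 0.52 ± 0.17 (SE, n = 4 against 4, limma adjusted p = 0.0165), and the bleomycin difference of 0.39 was not (limma adjusted p = 0.0634), although it passed when those 2 groups were fitted alone (0.0349) and without vehicle replicate 4 (0.0494). The doxorubicin call was lost with a smaller pseudocount (limma adjusted p = 0.122 with 0.1 and 0.372 with 0.01) and with quantile normalization (0.0923). It was also lost without doxorubicin replicate 2 (limma adjusted p = 0.0518) or without vehicle replicate 1 (0.0637). The difference between IL-1β and vehicle was -0.26 with a 95% interval of -0.61 to 0.09.

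Fgf2 (ENSMUSG00000037225.13, basic FGF, chr3:37348346-37410108, plus strand) was scattered within groups. It had 2.41, 6.16, 2.18 and 2.48 FPKM in the bleomycin libraries and 1.83, 6.54, 5.23 and 2.26 FPKM in the doxorubicin libraries. It had 6.31, 6.18, 1.15 and 5.98 FPKM in the IL-1β libraries, against 3.51, 4.53, 2.03 and 4.35 FPKM in the vehicle libraries. High and low libraries occurred in every group and all groups overlapped. The 95% interval of the log2 difference from vehicle ran from -1.01 to 0.72 for bleomycin, -0.84 to 0.89 for doxorubicin and -0.62 to 1.10 for IL-1β. Differences within those bounds are not excluded. Exons of Fgf2 share 640 bases with Nudt6 on the opposite strand. Nudt6 had 8.34, 8.34, 10.9 and 5.08 FPKM after IL-1β, against 5.34, 5.25, 6.14 and 5.19 FPKM in vehicle. The library kit keeps strand, but whether the counting used it was not given in the sources used here, so reads in the shared bases may be split between both genes. In every group Fgf2 was lowest in the library where Nudt6 was highest. Fgf2 and Nudt6 stood there at 2.18 and 4.34 FPKM after bleomycin and at 1.83 and 4.27 after doxorubicin. They stood at 1.15 and 10.9 FPKM after IL-1β and at 2.03 and 6.14 in vehicle. The reverse did not hold, since in no group was Fgf2 highest in the library where Nudt6 was lowest, replicate 4. There Fgf2 stood at 2.48, 2.26, 5.98 and 4.35 FPKM after bleomycin, doxorubicin and IL-1β and in vehicle. The highest Fgf2 values of those groups were 6.16, 6.54, 6.31 and 4.53 FPKM. The part of shared reads in these values was not tested.

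Fgf1 (ENSMUSG00000036585.16, acidic FGF, on chromosome 18) stayed under 1 FPKM in all 16 libraries. It had 0.237, 0.201, 0.226 and 0.132 FPKM in the bleomycin libraries and 0.290, 0.259, 0.260 and 0.271 FPKM in the doxorubicin libraries. It had 0.412, 0.102, 0.0549 and 0.170 FPKM in the IL-1β libraries, against 0.0730, 0.201, 0.193 and 0.125 FPKM in the vehicle libraries. The 4 doxorubicin libraries lay above the 4 vehicle libraries and above the 4 bleomycin libraries (exact two-sided permutation p = 0.0286 in each comparison, the smallest that 4 against 4 can give). The other comparisons with vehicle gave exact permutation p = 0.200 for bleomycin and 0.8286 for IL-1β. These p-values are unadjusted, and 12 such comparisons were made for Fgf1 and Fgfbp3 together.

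Fgfbp3 (ENSMUSG00000047632.11, chr19:36917550-36919615, minus strand) encodes a carrier that releases FGFs from heparan sulfate. It had 0.918, 1.02, 1.29 and 0.916 FPKM in the bleomycin libraries and 0.685, 0.809, 1.01 and 0.882 FPKM in the doxorubicin libraries. It had 0.590, 0.421, 0.827 and 0.642 FPKM in the IL-1β libraries, against 0.445, 0.792, 0.811 and 0.734 FPKM in the vehicle libraries. The bleomycin libraries lay above the vehicle and the IL-1β libraries (exact two-sided permutation p = 0.0286 in both). Doxorubicin and IL-1β overlapped vehicle (exact permutation p = 0.257 and 0.543).

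Among the receptors, Fgfr1 (ENSMUSG00000031565.18, chr8:25513654-25575718, plus strand), a receptor tyrosine kinase of many mesenchymal cells, rose after both drugs. It had 82.5, 84.1, 92.2 and 97.2 FPKM in the bleomycin libraries and 95.4, 89.1, 81.7 and 94.9 FPKM in the doxorubicin libraries, against 48.98, 48.3, 45.9 and 45.3 FPKM in the vehicle libraries. The IL-1β libraries had 49.9, 51.3, 52.7 and 48.3 FPKM. Every drug library was above every IL-1β and vehicle library, and both drug groups overlapped each other. Fgfr1 rose 1.89-fold after bleomycin, a log2 difference of 0.90 ± 0.06 (SE, n = 4 against 4, limma adjusted p = 1.42e-08), and 1.92-fold after doxorubicin, a log2 difference of 0.92 ± 0.06 (SE, n = 4 against 4, limma adjusted p = 6.76e-09). Gm16159, which shares exon bases with Fgfr1 on the opposite strand, was listed at 0 in all 16 libraries. Between both drugs the log2 difference was -0.02, with a 95% interval of -0.15 to 0.11. With IL-1β it was 0.10 (limma adjusted p = 0.217), and under other scalings it fell below 0, at -0.27 when each library was rescaled to a common FPKM sum (TPM; limma adjusted p = 0.00172) and at -0.02 with quantile normalization (0.868).

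Fgfr2 (ENSMUSG00000030849.18, chr7:130162451-133123350, minus strand), whose splice forms differ in ligand choice between epithelia and mesenchyme, also rose after both drugs. It had 73.8, 69.2, 71.5 and 69.5 FPKM in the bleomycin libraries and 69.5, 73.5, 68.95 and 71.4 FPKM in the doxorubicin libraries, against 52.3, 55.1, 55.2 and 48.9 FPKM in the vehicle libraries. The IL-1β libraries had 52.9, 51.5, 44.6 and 50.2 FPKM. The 8 drug libraries lay above the 8 others without overlap. The rise was 1.34-fold for each drug, a log2 difference of 0.42 ± 0.06 for each (SE, n = 4 against 4, limma adjusted p = 1.83e-05 for bleomycin and 1.6e-05 for doxorubicin). With IL-1β the log2 difference was -0.09 (limma adjusted p = 0.237), and it was called lower after 3 other scalings, at -0.46 (TPM), -0.14 (median of ratios) and -0.20 (quantile normalization). The exons of the long Fgfr2 model share 314 bases with Ctbp2 on the same strand. Ctbp2 ranged from 12.4 to 15.6 FPKM after bleomycin and 12.7 to 14.2 after doxorubicin, against 14.3 to 17.2 in vehicle.

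Fgfr3 (ENSMUSG00000054252.18, chr5:33721674-33737068, plus strand) encodes the receptor known for restraining growth plate chondrocytes. It had 14.5, 11.8, 11.4 and 17.6 FPKM in the IL-1β libraries and 27.1, 32.9, 31.8 and 24.85 FPKM in the doxorubicin libraries, against 35.3, 41.4, 50.8 and 35.6 FPKM in the vehicle libraries. The bleomycin libraries had 32.9, 35.85, 41.3 and 31.9 FPKM. Every IL-1β library lay below every other library, doxorubicin lay below vehicle, and bleomycin overlapped both. Fgfr3 fell 2.95-fold after IL-1β, a log2 difference of -1.50 ± 0.14 (SE, n = 4 against 4, limma adjusted p = 2.58e-07). After doxorubicin the difference was -0.46 ± 0.14 (SE, n = 4 against 4, limma adjusted p = 0.0122), and after bleomycin it was -0.19 with a 95% interval of -0.49 to 0.11. An opposite-strand transcript that shares exon bases with Fgfr3, G630022F23Rik, reached at most 0.391 FPKM in any library. Both drugs differed from each other by 0.28 with a 95% interval of -0.02 to 0.57 (limma adjusted p = 0.244).

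Fgfr4 (ENSMUSG00000005320.9, chr13:55152640-55168759, plus strand), a receptor best known from liver and muscle, was called lower in all 3 comparisons with vehicle. It had 1.79, 1.86, 1.93 and 1.77 FPKM in the bleomycin libraries and 1.88, 1.87, 1.44 and 1.42 FPKM in the doxorubicin libraries. It had 1.13, 0.672, 0.715 and 0.775 FPKM in the IL-1β libraries, against 2.75, 3.05, 2.48 and 2.38 FPKM in the vehicle libraries. Each treated library lay below each vehicle library, and each IL-1β library below each drug library. It fell by 0.37 (limma adjusted p = 0.005) after bleomycin, by 0.47 (limma adjusted p = 0.000712) after doxorubicin and by 1.01 (limma adjusted p = 2.87e-07) after IL-1β on the log2(FPKM + 1) scale, which understates changes at this level. In mean FPKM it was 1.45-fold, 1.61-fold and 3.24-fold lower after bleomycin, doxorubicin and IL-1β.

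Fgfrl1 (ENSMUSG00000008090.14, chr5:108692382-108706924, plus strand) encodes an FGF receptor without a kinase domain. It had 16.4, 12.2, 14.6 and 15.03 FPKM in the IL-1β libraries, against 37.98, 40.1, 45.7 and 33.6 FPKM in the vehicle libraries. The bleomycin libraries had 37.8, 38.4, 43.5 and 35.9 FPKM and the doxorubicin libraries 64.4, 35.9, 37.1 and 34.8 FPKM. The IL-1β libraries lay below all 12 others. Fgfrl1 fell 2.71-fold after IL-1β, a log2 difference of -1.38 ± 0.16 (SE, n = 4 against 4, limma adjusted p = 2.6e-06). It was not called after bleomycin (-0.01, limma adjusted p = 0.961) or doxorubicin (0.09, limma adjusted p = 0.679), and without doxorubicin replicate 1 the doxorubicin difference was -0.12.

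Set directly against IL-1β, all 5 receptors were called higher after each drug. The share of all tested genes called higher was 27.6% for bleomycin and 25.1% for doxorubicin (57.9% and 53.4% after rescaling to TPM). With Fgf18 higher and Fgf7 lower, 7 of the 8 tested genes were called in each of these comparisons, against 52.8% of all tested genes for bleomycin and 54.2% for doxorubicin. Fgf18 reached the filter through the drug libraries alone, which favoured its call, so the count of 7 is no support. Fgfr3 averaged 35.5 FPKM after bleomycin and 29.2 after doxorubicin, against 13.8 after IL-1β (log2 differences of 1.31 and 1.04, limma adjusted p = 9.82e-07 and 1.18e-05). Fgfr1 differed from IL-1β by 0.80 after bleomycin and by 0.82 after doxorubicin (limma adjusted p = 2.25e-08 and 1.56e-08). The IL-1β tables sum to more FPKM than the others, 521294 to 559190 against 405159 to 423830 in the drug and vehicle tables. Rescaling to a common sum moved the median log2 difference of all tested genes between IL-1β and vehicle to -0.31, against 0.03 as deposited. Relative to that median, Fgf7 stood at 2.03 after rescaling and 2.02 as deposited, Fgfr3 at -1.59 and -1.53, and Fgfr1 at 0.04 and 0.07.

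The make-up of the receptor pool differed between treated cells and vehicle. The FPKM of Fgfr1 to Fgfr4 summed to 197 ± 7.76 after bleomycin, 192 ± 5.69 after doxorubicin and 115 ± 3.93 after IL-1β, against 143 ± 9.72 in vehicle (SD, n = 4 each), with no overlap between any treated group and vehicle. Fgfr3 made up 17.96% ± 1.78 of that sum after bleomycin, 15.2% ± 2.11 after doxorubicin and 12.0% ± 2.23 after IL-1β, against 28.3% ± 3.27 in vehicle (SD, n = 4 each). The highest share in any treated library was 19.97% and the lowest in vehicle 25.3%. Fgfr1 made up 45.1% ± 2.37 after bleomycin, 47.0% ± 2.59 after doxorubicin and 44.0% ± 3.06 after IL-1β, against 32.9% ± 2.39 in vehicle. The ratio of Fgfr1 to Fgfr3 was 2.23 to 3.05 after bleomycin, 2.57 to 3.82 after doxorubicin and 2.75 to 4.60 after IL-1β, against 0.903 to 1.39 in vehicle. As deposited, the drug groups differed from vehicle mainly in the numerator, Fgfr1, and the IL-1β group in the denominator, Fgfr3. Under TPM the log2 differences between IL-1β and vehicle were -0.27 for Fgfr1 and -1.90 for Fgfr3. Ratios and shares within a library do not change when the library is scaled by 1 factor, as in TPM. Quantile normalization can change them. The ratios and shares are given here as descriptions.

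**Figure D3:**
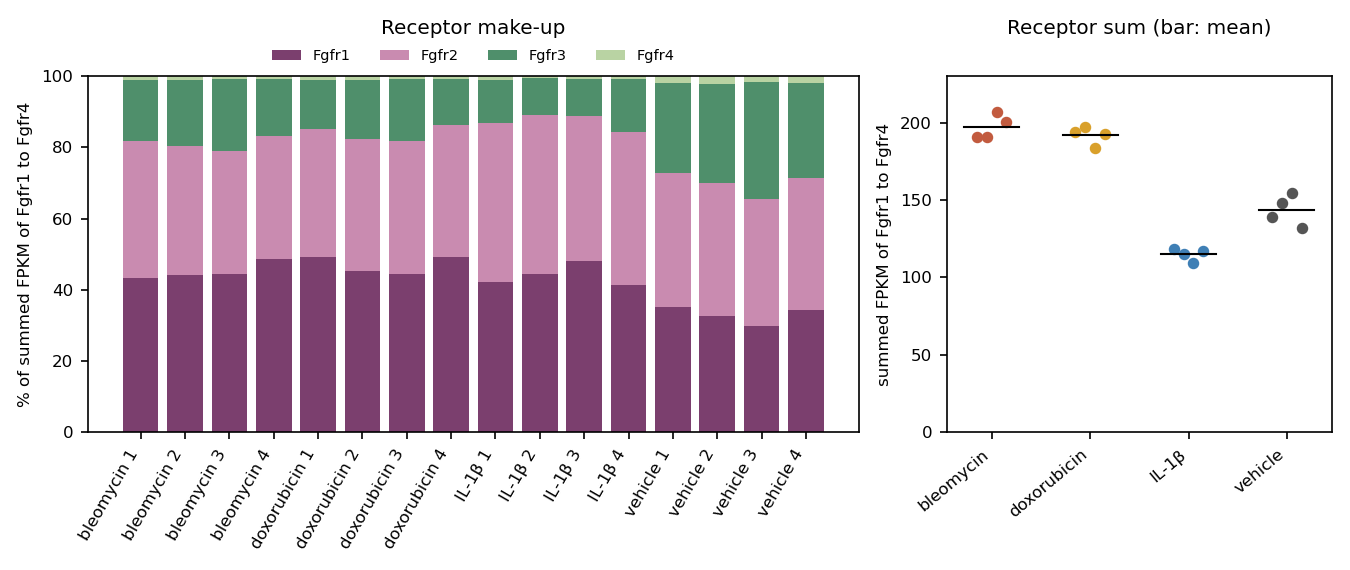
Left, share of Fgfr1 to Fgfr4 in their summed FPKM in each library (%); right, that sum in FPKM, points for libraries and bars for means of 4, with treated groups left of vehicle. The Fgfr3 share is highest in the 4 vehicle libraries (25.3% or more), and the sum is highest after the drugs and lowest after IL-1β.

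Of the summed FPKM of the 4 ligands, Fgf7 made up 80.3% ± 5.44 after bleomycin, 88.8% ± 5.05 after doxorubicin and 93.5% ± 3.21 after IL-1β, against 80.1% ± 2.74 in vehicle (SD, n = 4 each). The sum was 23.4, 50.6 and 82.3 FPKM after bleomycin, doxorubicin and IL-1β, against 22.4 in vehicle. Fgf2 gave most of the rest. The kinase-less Fgfrl1 averaged 0.439 of the Fgfr1 level after bleomycin, 0.475 after doxorubicin and 0.288 after IL-1β, against 0.836 in vehicle. In that order the ranges were 0.369 to 0.472, 0.366 to 0.675, 0.237 to 0.328 and 0.742 to 0.997 (n = 4 each). The highest doxorubicin value was that of replicate 1. The medians were 0.457 after bleomycin and 0.429 after doxorubicin.

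The genes whose log2(FPKM + 1) followed each of the 8 tested genes most closely were found by Pearson's r over the 16 libraries, which fall into the 4 groups. These r are descriptions with no test and carry the group differences. Nearest to Fgf7 were Slpi (0.976), Arhgdib (0.975) and C3 (0.974), the last encoding complement component 3. Nearest to Fgfr1 were Ephx1 (0.985), Isg15 (0.984) and Cd80 (0.984), and nearest to Fgfr2 were Col20a1 (0.978), Wls (0.973) and Tmco3 (0.971). Nearest to Fgfr3 were Igdcc4 (0.968), Ldlrad3 (0.965) and Loxl4 (0.963). Nearest to Fgfr4 were Igf2os (0.963), Loxl3 (0.961) and B4galnt3 (0.957), and nearest to Fgfrl1 were Ggcx (0.956), Cobl (0.947) and Tgfbr2 (0.946). Nearest to Fgf18 were Kat2b (0.913), Ankrd28 (0.902) and Asap1 (0.901). The closest to Fgf2 reached lower r, with Rbm12 at 0.811, Zfp180 at 0.774 and Map1b at 0.734. Among the receptors themselves, r was 0.924 for Fgfr1 with Fgfr2 and 0.903 for Fgfr3 with Fgfr4, and 0.247 for Fgfr1 with Fgfr3.

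Of 18 other FGF genes 3 were tested. Fgf21, a metabolic hormone of liver, fell in all 3 comparisons, to 3.98 ± 0.116 FPKM after bleomycin, 3.05 ± 0.437 after doxorubicin and 0.931 ± 0.197 after IL-1β, against 9.59 ± 2.47 in vehicle (SD, n = 4 each; limma adjusted p = 6.23e-06, 3.17e-07 and 3.33e-10). Fgf10, a mesenchymal ligand of the same subfamily as Fgf7, rose in all 3, to 1.21, 2.43 and 1.97 FPKM, against 0.570 in vehicle (limma adjusted p = 0.00554, 2.24e-06 and 1.96e-05). Fgf10 reached 1 FPKM in no vehicle library and passed the filter through treated libraries alone, which favoured its calls. Fgf13, an intracellular homologue that is not secreted, averaged 10.3 FPKM after IL-1β, against 6.52 in vehicle (limma adjusted p = 3.61e-06). It was called lower after bleomycin at 5.69 FPKM, close to the threshold (limma adjusted p = 0.0496). Its bleomycin libraries (4.96 to 6.49 FPKM) overlapped those of vehicle (6.35 to 6.75).

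Of 9 co-receptor and binding protein genes, 8 were in the tables and 4 were tested. Flrt2, a membrane protein that binds FGF receptors, rose to 11.0 FPKM after bleomycin and 13.1 after doxorubicin and fell to 4.09 after IL-1β, against 6.20 in vehicle (limma adjusted p = 1.28e-06, 4.76e-08 and 7.86e-05). Ncam1 rose to 16.2 FPKM after IL-1β, against 12.9 in vehicle (limma adjusted p = 0.00435). Glg1, a Golgi protein that binds FGFs, was called higher after bleomycin (58.4 FPKM) and lower after IL-1β (42.7 FPKM), against 48.1 FPKM in vehicle.

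Heparan sulfate proteoglycans, which carry the chains FGFs need for binding, had 11 of 12 genes tested. Called higher and lower were 7 and 2 after bleomycin, 7 and 1 after doxorubicin, and 4 and 5 after IL-1β, where 46.9%, 48.3% and 43.0% of all tested genes were called in either direction. The median log2 difference of the 11 was 0.30, 0.39 and 0.06 after bleomycin, doxorubicin and IL-1β, beside 0.06, 0.02 and 0.03 over all tested genes. The syndecan Sdc4 averaged 353 ± 22.4 FPKM after IL-1β, against 131 ± 8.53 in vehicle, and Sdc1 averaged 113 ± 7.75 FPKM, against 44.7 ± 2.55 (SD, n = 4 each; limma adjusted p = 1.62e-11 and 4.3e-10). Sdc2 averaged 203 FPKM after bleomycin and 173 after doxorubicin, against 113 in vehicle (limma adjusted p = 4.87e-09 and 9.75e-08), and was lower after IL-1β at 96.95 FPKM (0.00264). Agrn, encoding agrin, and the glypican Gpc2 rose after both drugs, Agrn to 19.3 and 18.03 FPKM after bleomycin and doxorubicin, against 11.0 in vehicle. Gpc2 reached 1 FPKM in the drug libraries alone, so the filter favoured its call.

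Of 19 enzymes that build or trim the chains 13 were tested, with 6 called higher and 2 lower after bleomycin, 7 and 3 after doxorubicin, and 4 and 4 after IL-1β. The shares of all tested genes called were 46.9%, 48.3% and 43.0%. Their median log2 difference was 0.24, 0.30 and 0.07. The sulfatase Sulf2, which removes sulfate groups outside the cell, rose to 59.3 ± 4.07 FPKM after bleomycin and 71.1 ± 3.32 after doxorubicin, against 35.6 ± 2.68 in vehicle (SD, n = 4 each; limma adjusted p = 1.89e-07 and 4.07e-09). Its relative Sulf1 was higher after doxorubicin, at 85.5 FPKM, and lower after IL-1β, at 51.1 FPKM, against 69.7 FPKM in vehicle (limma adjusted p = 0.0203 and 0.0018). Ext1, which lengthens the chains, rose in all 3 comparisons, to 16.4 FPKM after bleomycin, 16.4 after doxorubicin and 15.6 after IL-1β, against 11.4 in vehicle. Hs2st1, a sulfotransferase, fell to 8.67 FPKM after IL-1β, against 11.8 in vehicle (limma adjusted p = 0.000269).

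All 21 adaptor and cascade genes were tested, with 7 called higher and 3 lower after bleomycin, 5 and 4 after doxorubicin, and 5 and 5 after IL-1β. These counts lie near the 46.9%, 48.3% and 43.0% of all tested genes called. Their median log2 difference was 0.17, 0.03 and -0.03. Shc1, an adaptor, rose in all 3 comparisons, to 64.1, 64.3 and 66.3 FPKM after bleomycin, doxorubicin and IL-1β, against 48.4 in vehicle. Nras, a RAS protein, fell to 21.8 and 21.7 FPKM after bleomycin and doxorubicin, against 31.4 in vehicle. Frs2, the adaptor that docks on FGF receptors, fell to 12.7 FPKM after IL-1β, against 17.8 in vehicle (limma adjusted p = 0.000286), and Gab1 fell to 5.64 FPKM, against 8.40 (limma adjusted p = 4.09e-05). Grb2 was called higher in all 3, but its vehicle libraries ranged widely, at 21.6, 22.1, 11.1 and 14.3 FPKM.

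Genes that ERK signalling is known to induce, many of them feedback inhibitors, had 15 of 19 tested. Called higher and lower were 9 and 0 after bleomycin, 6 and 3 after doxorubicin, and 4 and 2 after IL-1β, beside 46.9%, 48.3% and 43.0% of all tested genes. The IL-1β count lies near that background. Among the 15, Etv1 reached 1 FPKM in treated libraries alone. Their median log2 difference was 0.43, 0.16 and 0.16. Etv5, an ETS transcription factor downstream of FGF, rose to 18.2 ± 1.21 FPKM after bleomycin and 17.6 ± 0.912 after doxorubicin and fell to 5.74 ± 0.295 after IL-1β, against 7.36 ± 0.741 in vehicle (SD, n = 4 each; limma adjusted p = 2.43e-09, 2.18e-09 and 0.00205). The inhibitor Spred3 averaged 3.74 FPKM after bleomycin and 4.18 after doxorubicin, against 1.85 in vehicle (limma adjusted p = 5.74e-05 and 9.32e-06). Spry2, a Sprouty inhibitor, averaged 7.77 and 6.90 FPKM after bleomycin and doxorubicin, against 5.08 in vehicle (limma adjusted p = 0.00166 and 0.0153). Its doxorubicin libraries overlapped those of vehicle. After IL-1β Phlda1 rose to 29.1 FPKM, against 8.49 in vehicle, Fosl1, an AP-1 subunit, to 29.4 FPKM, against 10.4, and Spry3 to 2.83 FPKM, against 1.15. These genes respond to many ERK inputs.

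**Figure D4:**
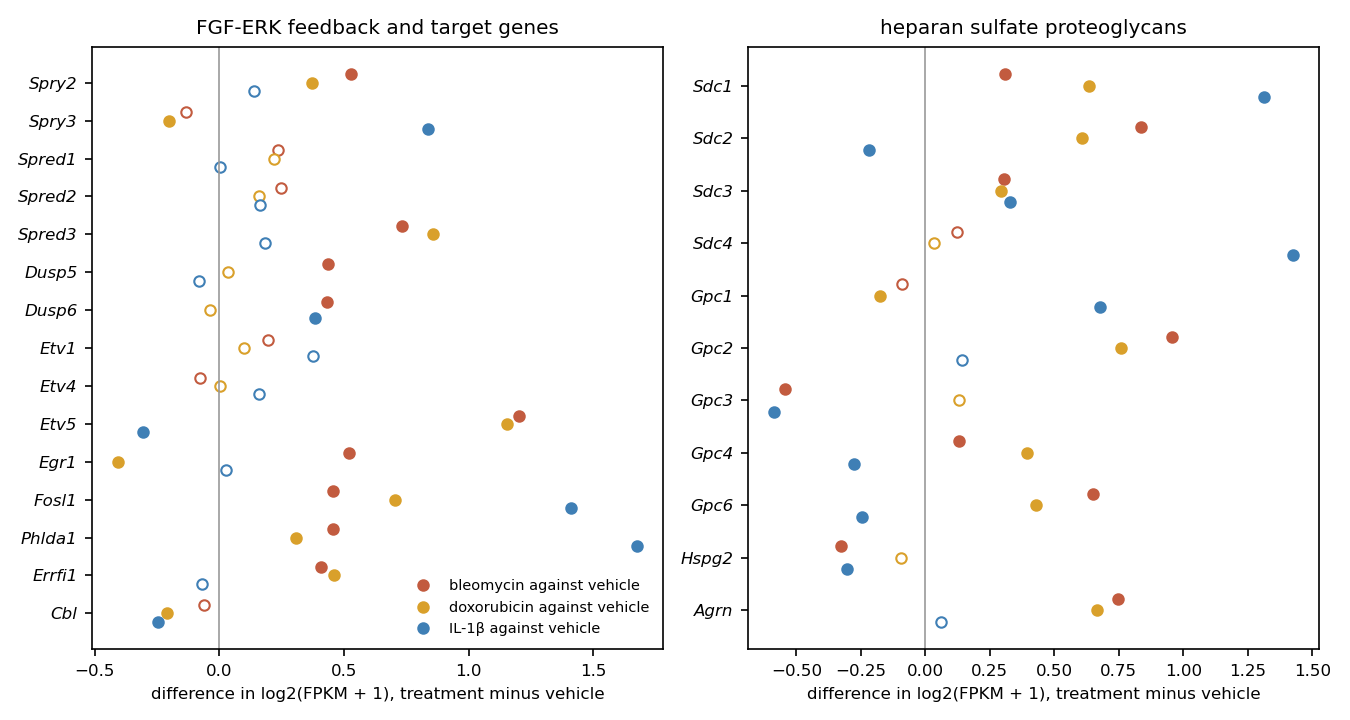
Difference in log2(FPKM + 1), treatment minus vehicle, of the tested ERK feedback and target genes (left) and heparan sulfate proteoglycans (right); filled points were called at an adjusted p under 0.05. Etv5 lies at 1.20 and 1.15 after bleomycin and doxorubicin and at -0.31 after IL-1β, and Sdc4 at 1.43 and Sdc1 at 1.31 after IL-1β.

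The label of the cells was checked on their markers. Each of 11 chondrocyte markers averaged at least 1 FPKM in every group, and their sum was 9630 to 12760 FPKM after bleomycin, 9800 to 12860 after doxorubicin and 5566 to 5932 after IL-1β, against 12730 to 16880 in vehicle. After IL-1β 10 of the 11 were called lower, against 18.4% of all tested genes (52.6% after rescaling to TPM). In the same libraries Fgfr3, Fgfr4 and Fgfrl1 were lowest. After bleomycin and after doxorubicin 7 of the 11 were called lower, against 19.0% and 22.8% of all tested genes. Called higher were 2, 1 and 1 after bleomycin, doxorubicin and IL-1β. For bleomycin, doxorubicin, IL-1β and vehicle, osteoblast markers summed to 985 to 1069, 925.5 to 1046, 413 to 498 and 1040 to 1184 FPKM. In that order, osteoclast markers, mostly Ctsk and Acp5, had 103.5 to 113, 122 to 158, 153 to 178.5 and 75.1 to 83.6 FPKM. Tendon and ligament markers had 24.8 to 33.6, 37.5 to 47.5, 23.35 to 31.5 and 52.0 to 67.1 FPKM. Endothelial, skeletal muscle and keratinocyte markers each summed to at most 6.94 FPKM in any library. The part of these markers in the receptor differences was not tested. Sox9 averaged 44.4, 46.8 and 31.1 FPKM after bleomycin, doxorubicin and IL-1β, against 57.3 in vehicle. Cdkn1a, a cell cycle inhibitor gene, rose to 302 and 327 FPKM after bleomycin and doxorubicin and to 167 after IL-1β, against 122 in vehicle. Mki67, a marker of dividing cells, averaged 2.21, 1.47 and 5.82 FPKM after bleomycin, doxorubicin and IL-1β, against 4.82 in vehicle. Its doxorubicin libraries (1.13 to 1.75 FPKM) lay below those of vehicle (2.88 to 6.63). Its bleomycin libraries (0.926 to 4.09 FPKM) and IL-1β libraries overlapped vehicle. Il6 averaged 0.364, 2.06 and 47.3 FPKM after bleomycin, doxorubicin and IL-1β, against 2.08 in vehicle, and Mmp13, a collagenase gene, 196, 351 and 1518 FPKM, against 182. Of 8 adipocyte markers 6 were tested, and 3 of these, Adipoq, Plin1 and Cfd, reached 1 FPKM in the drug libraries alone, so the filter favoured their calls and no count is given. The sum of the 8 was 73.0 to 84.0 FPKM after bleomycin, 154 to 201 after doxorubicin and 367 to 405 after IL-1β. In vehicle it was 35.7 to 41.3 FPKM. Lep and Cidec averaged under 1 FPKM in every group. Adipoq, Plin1 and Cfd did so after IL-1β and in vehicle, so most of those sums came from Fabp4, Pparg and Lpl.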

How the data were processed

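Polyadenylated RNA was sequenced with a stranded kit in 16 libraries, 4 per group. The submitters' processing notes name Trimmomatic, STAR and the genome build GRCm38. The deposited tables hold FPKM values computed by the authors; the program and annotation behind them are not given in the sources used here. Low values gave whole fragments for 71.5% to 76.2% of genes (tolerance 0.1), so counts were not recovered and absolute depth is unknown; relative depth differed up to 1.39 times between libraries.

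The members and gene lists were chosen with earlier results of these data known. From the deposited FPKM, log2(FPKM + 1) was fitted in a single model of all 16 libraries (limma 3.58.1, R 4.3.3), with a mean-variance trend and Benjamini-Hochberg adjustment per comparison, after checks on simulated data. Tested were the 12976 genes that reached 1 FPKM in 4 or more libraries. Fgf1 and Fgfbp3 were compared by exact permutation over 70 splits. Named besides the 10 genes were, per pathway list and comparison with vehicle, up to 3 called genes with the largest differences whose libraries did not overlap, the 3 nearest genes by r, overlapping genes and 7 check genes. Gene coordinates are from GENCODE M21 on GRCm38. The alternatives were other pseudocounts, filters and scalings, no trend, 2 groups only, a replicate block and each library left out.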

Additional observations from a re-analysis of the deposited data

Results flagged for a closer look

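Of the 40 sets of 4 libraries (10 genes in 4 groups), 5 held a library far from the other 3, where chance flags about 1 in 20 sets. Fgf2 stood at 6.16 FPKM in bleomycin replicate 2, beside 2.18 to 2.48 in the other bleomycin libraries. Fgf2 stood at 1.15 FPKM in IL-1β replicate 3, beside 5.98 to 6.31 in the other IL-1β libraries. Fgf7 stood at 15.4 FPKM in bleomycin replicate 3, beside 19.5 to 19.97, and at 12.7 FPKM in vehicle replicate 3, beside 19.1 to 20.3. In every group Fgf7 was lowest in replicate 3. Fgfrl1 stood at 64.4 FPKM in doxorubicin replicate 1, beside 34.8 to 37.1 in the other doxorubicin libraries.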

How the results depend on the processing

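Leaving out any 1 library kept every call of Fgf7, Fgfr1, Fgfr2, Fgfr3, Fgfr4 and Fgfrl1. Called genes of the 8 after IL-1β numbered 4, and 7 after rescaling to TPM, where Fgf18 (-0.60), Fgfr1 (-0.27) and Fgfr2 (-0.46) were added as lower. Among the 8, differences with a sign change were not called, apart from Fgfr1 under TPM. They were Fgf2 with IL-1β under TPM (-0.078 against vehicle, 0.10 for doxorubicin against IL-1β), Fgfr1 with IL-1β under quantile normalization (-0.015), and, under median-of-ratios scaling, Fgf7 after bleomycin (-0.0081) and Fgf2 after doxorubicin (-0.0020, and -0.046 under quantile normalization). Fgfr2 between both drugs was -0.043 and -0.014 under those scalings. With 1 library left out, differences of the 8 with a sign change ranged from -0.074 to 0.16 for Fgf7 after bleomycin, -0.21 to 0.26 for Fgf2 after doxorubicin, -0.45 to 0.070 for Fgf2 and -0.067 to 0.014 for Fgfr1, -0.016 to 0.021 for Fgfr2 and -0.18 to 0.11 for Fgfrl1 between both drugs, -0.65 to 0.016 for Fgf2 between doxorubicin and IL-1β, and -0.083 to 0.062 and -0.12 to 0.17 for Fgfrl1 after bleomycin and doxorubicin. The untested Fgf1 also changed sign, at -0.029 with IL-1β under TPM, and with 1 library left out it ranged from -0.050 to 0.090 for IL-1β against vehicle and -0.027 to 0.11 for bleomycin against IL-1β. The cause of these shifts was not tested. After bleomycin 27.9% of tested genes were called higher and 19.0% lower, and under median-of-ratios scaling 22.2% and 24.3%. After IL-1β these shares were 24.5% and 18.4%, and under TPM 10.1% and 52.6%. Same-numbered replicates had correlated deviations of -0.02 to 0.21, over 0.1 in 6 of 24 pairs. Pairs with other numbers ran from -0.195 to 0.099, so every pair over 0.1 was same-numbered. Of the 16 libraries, 11 correlated best with their own number. The labels state no pairing, so the main fit did not pair libraries. Whether same-numbered libraries share a culture or animal was not tested. With a replicate block, 6209, 6441 and 5735 genes were called after bleomycin, doxorubicin and IL-1β, beside 6086, 6262 and 5574 without it, and the counts among the 8 stayed at 3, 6 and 4. For Fgf1 and Fgfbp3 the stricter filter, quantile normalization and the fit without trend were not run.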
